A study of Mus musculus with 11 samples.

Results

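The genes described are those of ketone body synthesis and use that carry the names Bdh1, Bdh2, Acat1 and Oxct1. They were taken from the table by name, from a set of genes drawn up with earlier results of these data known, and took up 5 of the 43346 gene entries of the count table, since 2 entries bore the name Bdh2. Colon RNA was compared between 5 germ-free and 6 humanized mice, all male Swiss Webster animals of 8 to 10 weeks that were housed singly in isolators on an autoclaved diet. The germ-free mice had no gut microbiota. The humanized mice were germ-free animals given 300 μL of a stool suspension by gavage at 4 to 5 weeks of age, followed by 4 to 5 weeks of adaptation, and all of them received stool of the same 1 human donor, so that they represent a single donor's microbiota. The comparison asks how the presence of that microbiota goes with gene expression in the colon. The labels number different animals, so that the spread described is between mice.

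Ketone bodies, acetoacetate and 3-hydroxybutyrate, are small acids made from acetyl-CoA in mitochondria. They are best known as a fuel exported by the fasting liver, but colonocytes, which burn butyrate from bacterial fermentation, also make them. Acetoacetyl-CoA thiolase (Acat1) works at both ends of the pathway, joining acetyl-CoA in synthesis and splitting acetoacetyl-CoA in use. The mitochondrial dehydrogenase Bdh1 interconverts acetoacetate and 3-hydroxybutyrate, and Oxct1 (succinyl-CoA:3-oxoacid CoA transferase) reactivates acetoacetate so that a tissue can burn it. Bdh2 is a cytosolic short-chain dehydrogenase of the same name series.

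Of the 4 genes, Bdh1 rose by 1.39-fold in the humanized colon and Bdh2 fell by 1.77 on the log2 scale, from a level that was already low, while Acat1 and Oxct1 did not pass the test. The calls of Bdh1 and Oxct1 changed under 2 other scalings of the libraries, and those of Bdh1 and Bdh2 were lost in a fit that blocked on replicate number. The genes were tested in a fit over all 19863 genes that passed the filter on low counts, by the exact test of edgeR, and an FDR (Benjamini-Hochberg) below 0.01 was called. Counts of 1 higher and 1 lower gene of 4 stand against a background of 9.2% of all tested genes called higher and 10.1% called lower, and the lower gene is limited by how it entered the test, as described with its values. Levels are given as RPKM, reads scaled to gene length and library size, with library sizes normalized by TMM (trimmed mean of M-values). CPM is the same without the length. Folds are log2-fold changes (LFC), humanized over germ-free.

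**Figure D1:**
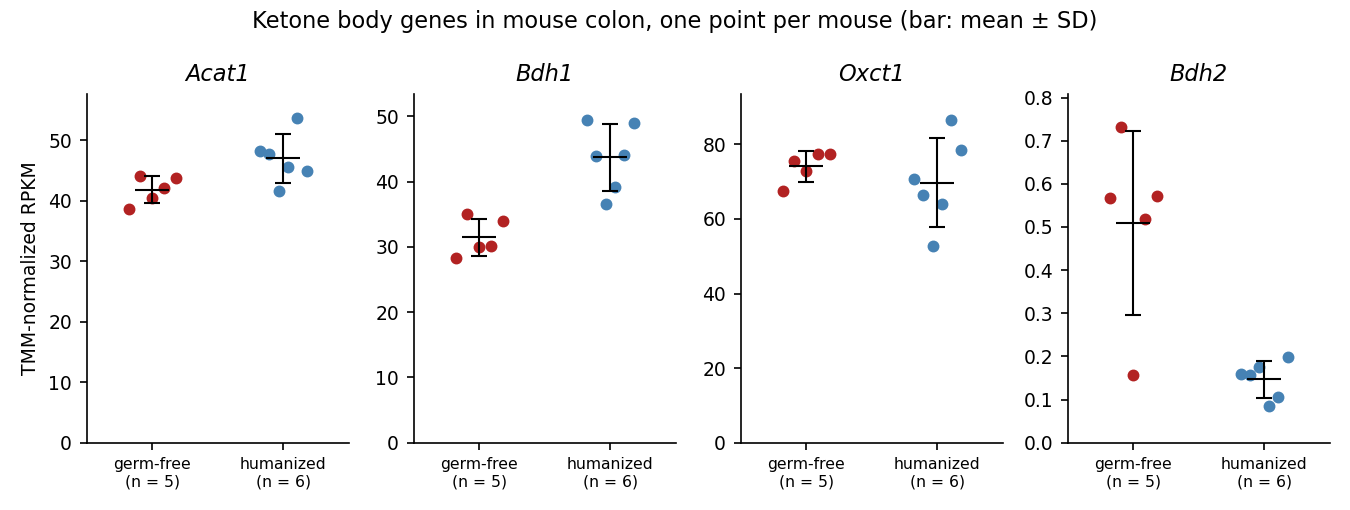
Each point is the RPKM of 1 mouse (vertical axes from 0, a scale per gene) for the 4 genes in 5 germ-free and 6 humanized mice, with bars at the mean ± SD. The groups do not overlap for Bdh1, overlap for Acat1 and Oxct1, and overlap for Bdh2 through 1 germ-free mouse at 0.156 RPKM.

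Bdh1 (ENSMUSG00000046598), on the plus strand of chromosome 16 from 31422280 to 31458901 (mm10), and Bdh2 (ENSMUSG00000028167), on chromosome 3 from 135281221 to 135304426, moved in opposite directions. The bases just before their annotated starts are therefore printed, with those of Oxct1, which did not pass the test, for comparison. They were read from RefSeq, build GRCm38.p6, plus strand, 5′ to 3′, and end at the base before the gene; the Oxct1 stretch lies within the span of BC037032, a gene on the other strand. Capitals mark the only match, within these 3 stretches, to any of the 6 motifs searched.
Bdh1, chr16:31422047-31422279: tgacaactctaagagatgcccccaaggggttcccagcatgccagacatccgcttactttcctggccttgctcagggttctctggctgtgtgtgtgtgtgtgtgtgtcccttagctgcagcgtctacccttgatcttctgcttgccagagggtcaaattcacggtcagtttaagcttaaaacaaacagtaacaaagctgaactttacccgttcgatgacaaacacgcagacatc
Bdh2, chr3:135280971-135281220: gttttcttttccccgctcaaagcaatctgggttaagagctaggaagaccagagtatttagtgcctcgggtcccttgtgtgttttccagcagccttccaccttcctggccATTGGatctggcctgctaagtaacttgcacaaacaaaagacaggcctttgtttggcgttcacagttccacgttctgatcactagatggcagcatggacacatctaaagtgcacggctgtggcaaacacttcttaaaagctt
Oxct1, chr15:4026178-4026382: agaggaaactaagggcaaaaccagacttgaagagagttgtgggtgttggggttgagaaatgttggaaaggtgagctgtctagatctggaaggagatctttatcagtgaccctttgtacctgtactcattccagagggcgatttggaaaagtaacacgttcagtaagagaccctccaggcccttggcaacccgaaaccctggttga

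The 3 stretches had GC contents of 49.8%, 48.0% and 47.8% and held 6, 5 and 3 CpG dinucleotides for Bdh1, Bdh2 and Oxct1. The capitals in the Bdh2 stretch are the reverse complement of CCAAT, the CCAAT box, which 37.4% of all 32851 promoter windows of 300 bases held on either strand. In the whole windows of 300 bases, from 250 before to 50 after each start, the GC box GGGCGG (35.7% of all windows) matched once, at a second Bdh1 start whose upstream stretch, chr16:31428503-31428747, had a GC content of 60.4%. No window of these genes held AGGTCA, the nuclear receptor half-site (16.3% of all windows), CAAAGTCCA, an HNF4A motif (0.475%), TTTATG, a CDX motif (11.9%), or TATAAA, the TATA box (13.6%). All letters were searched on both strands and no motif is contained in another. A match is a description of these letters, and 3 of the 4 genes had windows in the table, Acat1 being the one without.

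Bdh1 was expressed at 28.3, 35.0, 29.9, 30.1 and 33.9 RPKM in germ-free mice 1 to 5. In the humanized mice the lowest value was 36.6, the median 44.0 and the highest 49.4 RPKM. Every humanized mouse therefore stood above every germ-free mouse, a pattern that 8.67% of all tested genes showed in that direction. The means were 31.5 ± 2.87 (SD, n = 5) and 43.7 ± 5.12 RPKM (SD, n = 6). The LFC was 0.47 with a standard error of 0.09, and the FDR by edgeR's exact test was 3.17e-05. The fold of 1.39 had a 95% interval of 1.21 to 1.59. The call was lost when libraries were scaled to epithelium markers (LFC 0.23, edgeR FDR 0.0420) or to mitochondrial genes (LFC 0.10, edgeR FDR 0.284). With replicate number as a block it was lost too (LFC 0.44, quasi-likelihood FDR 0.0160). An exact two-sided permutation test over the 11 mice gave p = 0.00433, where the smallest p that this design allows is 0.00216.

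The Bdh1 counts lay between 5801 and 9325 reads per mouse, so that counting error is small beside the spread between mice. The antisense gene Gm15743 shares 533 exon bases with Bdh1, which is 13.7% of the Bdh1 exon bases. Gm15743 stood at 7.55 RPKM in germ-free and 9.49 RPKM in humanized mice, with an LFC of 0.33 and an FDR of 0.0257 by the exact test. The sources used here do not state whether reads were counted by strand, and reads from the shared bases cannot be told apart between the pair.

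Bdh2 was counted at 43, 46, 11, 39 and 48 reads in germ-free mice 1 to 5. The humanized mice had 7, 7, 10, 4, 6 and 12 reads. In RPKM the germ-free values were 0.567, 0.731, 0.156, 0.520 and 0.571, and the humanized values ran from 0.0855 through a median of 0.158 to 0.199. Germ-free mouse 3 lay inside the humanized range and the other 4 germ-free mice lay above it, so that none of the 4 genes had all humanized mice below all germ-free mice, which 9.73% of tested genes did.

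The mean Bdh2 level was 0.509 ± 0.213 RPKM (SD, n = 5) in germ-free and 0.147 ± 0.0431 RPKM (SD, n = 6) in humanized mice. The level was thus 3.42-fold lower with an LFC of -1.77, a standard error of 0.37 and an FDR of 0.000117 by the exact test. Leaving out 1 mouse at a time gave LFCs from -1.99, without germ-free mouse 3, to -1.61, without germ-free mouse 2. All 5 germ-free but only 2 humanized mice reached the level the count filter asks for, so Bdh2 entered the test through its germ-free values. Entry of this kind favours genes that are lower in the humanized mice, so that the FDR of Bdh2 is no independent support for the direction. When at least 10 reads were required in every mouse, Bdh2 was not tested. With replicate number as a block its call was lost (quasi-likelihood FDR 0.0319).

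The second entry named Bdh2 (ENSMUSG00000103480, chromosome 3, 135285566 to 135304221) lies inside the first. It held 157 germ-free and 41 humanized reads in all, against 187 and 46 in the first entry, and the counts of both entries were equal in 4 of the 11 mice and never more than 10 reads apart. Whether the same reads were counted in both entries cannot be told apart from separate transcripts, and the pair is treated as 1 measurement. The second entry gave an LFC of -1.70 with a standard error of 0.40 and an edgeR FDR of 0.000576. The deposited length of the first entry is 1202 bases, whereas its GENCODE exons cover 4250 bases, so that its RPKM depends on which length is used and its fold does not.

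Acat1 (ENSMUSG00000032047), the thiolase, lies on the minus strand of chromosome 9 from 53580522 to 53610382. Its germ-free values were 38.7, 44.0, 40.5, 42.1 and 43.8 RPKM. The humanized mice ranged from 41.6 through a median of 46.6 to 53.7 RPKM. The groups overlapped, the lowest humanized mouse lying among the germ-free mice and the other 5 above them. The means were 41.8 ± 2.27 (SD, n = 5) and 47.0 ± 4.05 RPKM (SD, n = 6). With an LFC of 0.17, a standard error of 0.07 and an edgeR FDR of 0.107, Acat1 was not called. The unadjusted 95% interval of the fold was 1.01 to 1.24 and the exact permutation p was 0.0281, so that a small difference is not excluded by these mice. The sign of this LFC turned under 3 of the scalings described below.

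Oxct1 (ENSMUSG00000022186), the enzyme of ketone use, lies on the plus strand of chromosome 15 from 4026383 to 4155344. The germ-free mice had 67.4, 75.6, 72.8, 77.3 and 77.5 RPKM. The humanized mice had 52.7 at the lowest, a median of 68.5 and 86.6 RPKM at the highest. Both tails of the humanized group reached past the germ-free range, and the coefficient of variation was 5.68% in germ-free and 17.0% in humanized mice. Means of 74.1 ± 4.21 (SD, n = 5) and 69.8 ± 11.8 RPKM (SD, n = 6) gave an LFC of -0.09 with a standard error of 0.11 and an edgeR FDR of 0.632. The 95% interval of the fold was 0.800 to 1.11 with TMM scaling, and the exact permutation p was 0.429. Oxct1 was called lower under scalings to epithelium markers and to mitochondrial genes, with the values given below. The gene BC037032 on the other strand shares 467 exon bases with Oxct1, or 12.6% of its exon bases, and had an LFC of -0.21 and an edgeR FDR of 0.371.

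Set in order of RPKM, the germ-free colon held most Oxct1, then Acat1, then Bdh1 and least Bdh2, and no neighbours in that order overlapped between mice. The germ-free means of Oxct1, Acat1 and Bdh1 stood at percentiles 96.7, 93.1 and 90.5 of all tested genes, and Bdh2 at percentile 16.9. In the humanized colon the order of the means was the same, but the ranges of Acat1 and Bdh1 overlapped, as did those of Oxct1 and Acat1, whose lowest and highest mice were at 52.7 and 53.7 RPKM. Bdh1 then stood at percentile 92.3 and Bdh2 at percentile 7.27.

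The same mice tended to be low in more than 1 gene. Humanized mouse 3 had the lowest Bdh1, Acat1 and Oxct1 of its group, and germ-free mouse 1 the lowest of all 3 in its own. These mice also had the lowest summed level of 11 epithelium markers in their groups, at 10334 and 9276 CPM. The same mice were lowest in the summed mitochondrial reference genes described below (5086 and 4254 CPM). They were lowest in the markers of differentiated colonocytes too (11832 and 6611 CPM). Without humanized mouse 3 the LFC of Bdh1 was 0.52, that of Acat1 0.20 and that of Oxct1 -0.02, and no call changed.

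Differences between the genes within a mouse do not depend on how libraries are scaled to each other. The log2 ratio of Bdh1 to Oxct1 was higher in humanized than in germ-free mice by 0.57 (exact two-sided permutation test, p = 0.00433, 0.00866 after Benjamini-Hochberg adjustment over all 6 pairs of genes). The RPKM of Bdh1 was 0.424 ± 0.0277 (SD, n = 5) of that of Oxct1 in germ-free and 0.634 ± 0.0709 (SD, n = 6) in humanized mice. The lowest humanized ratio, 0.508, lay above the highest germ-free ratio, 0.463. Bdh1 also moved relative to Acat1, by 0.31 (exact permutation, adjusted p = 0.00866), and Acat1 relative to Oxct1, by 0.27 (exact permutation, adjusted p = 0.0173). The ratio of Acat1 to Oxct1 was 0.564 ± 0.0149 (SD, n = 5) and 0.683 ± 0.0775 (SD, n = 6), with 1 humanized mouse, at 0.572, inside the germ-free range of 0.544 to 0.582.

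The log2 difference of Bdh1 minus Bdh2 was 6.09 in germ-free and 8.23 in humanized mice, higher by 2.13. Relative to Acat1 the difference of Bdh2 between the groups was -1.83, and relative to Oxct1 it was -1.56, on the same scale. These 3 differences are given as a description, without their p-values, since Bdh2 was brought in by its germ-free values. Their p-values did enter the adjustment over the 6 pairs. Adjusted over the 3 pairs without Bdh2, a choice made after the data were seen, the exact permutation p was 0.00649 for Bdh1 to Oxct1, 0.00649 for Bdh1 to Acat1 and 0.0152 for Acat1 to Oxct1.

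**Figure D2:**
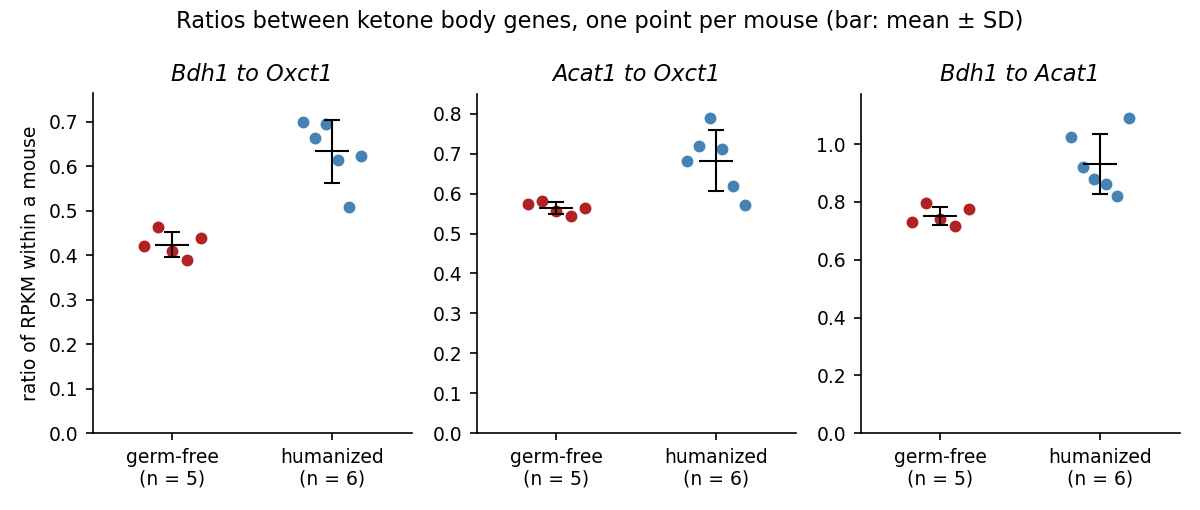
Ratios of RPKM within a mouse (vertical axes from 0, no unit) of Bdh1 and Acat1 to Oxct1 and of Bdh1 to Acat1, with 1 point per mouse and bars at the mean ± SD of 5 germ-free and 6 humanized mice. The humanized mice lie above all germ-free mice for Bdh1 to Oxct1 and for Bdh1 to Acat1 (0.820 to 1.09 against 0.716 to 0.795), and 1 humanized mouse lies within the germ-free range for Acat1 to Oxct1.

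Of 6 other ketone body enzymes described here, which are not all of the pathway, 5 were tested and none was called by edgeR's exact test, by the quasi-likelihood test or by DESeq2, and 1 had an unadjusted p below 0.05. Aacs, which activates acetoacetate in the cytosol for lipid synthesis, had an LFC of 0.07 and an FDR of 0.711. The cytosolic thiolases Acat2 and Acat3 had LFCs of -0.23 and 0.19, with FDRs of 0.256 and 0.109, and near-identical copies may share reads. Hmgcll1, an extramitochondrial lyase, had an LFC of -0.33 and an FDR of 0.207, and Oxct2a, a testis form of the CoA transferase, an LFC of 0.06 and an FDR of 0.959 at 0.183 and 0.193 RPKM. Oxct2b was too low to be tested. All these FDRs are from edgeR's exact test, and Acat2 and Hmgcll1 were called lower with scaling to mitochondrial genes. The signs of the LFCs of Aacs, Acat3 and Oxct2a turned with scaling to epithelium markers or mitochondrial genes, those of Aacs and Oxct2a also with total counts and without single mice, and none was called.

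**Figure D3:**
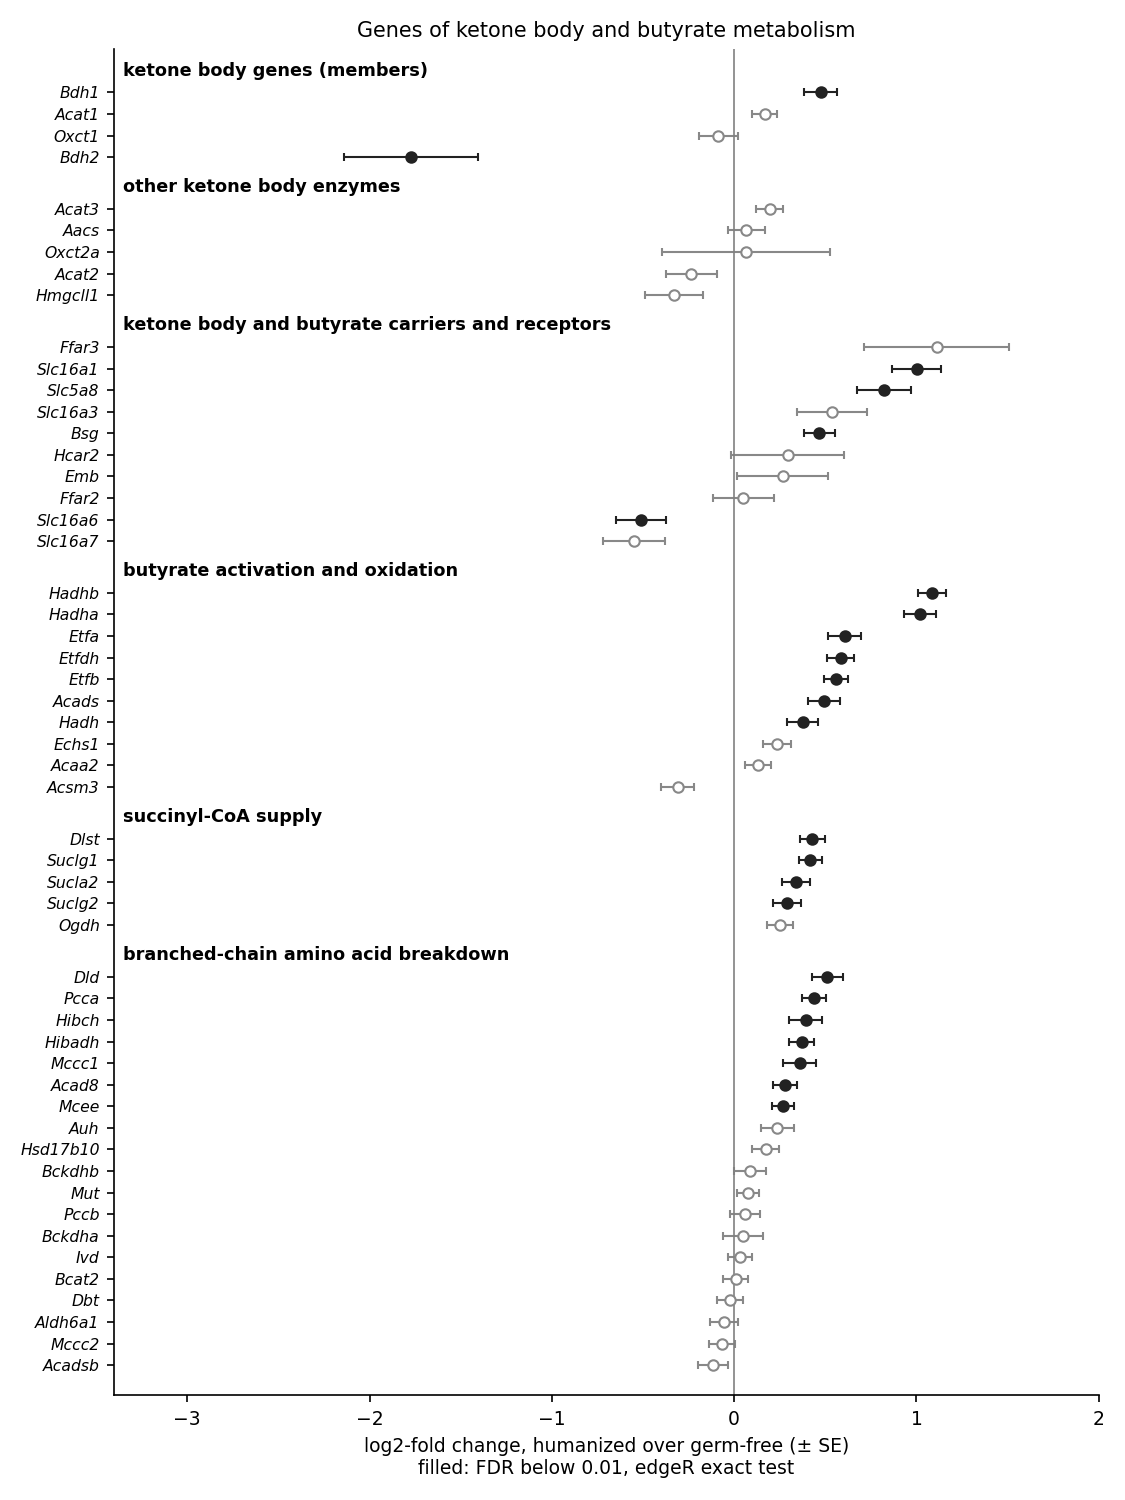
LFC of the 4 genes and of 5 lists of related genes, humanized over germ-free (horizontal axis, log2 scale), with bars of 1 standard error from the quasi-likelihood fit and filled points where the edgeR FDR was below 0.01. The list headed butyrate includes enzymes that act on longer chains, and that headed succinyl-CoA supply includes enzymes that can use it. Filled points on the right include Bdh1, Slc16a1 and Hadhb, and those on the left are Bdh2 and Slc16a6. Scaling to mitochondrial genes turns the sign of 7 filled points on the right, in butyrate oxidation, succinyl-CoA supply and branched-chain breakdown.

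Some carriers of ketone bodies and butyrate rose. Of 10 tested of 11 carriers and receptors, 3 were higher and 1 lower, where 9.2% and 10.1% of all tested genes were so called. The median LFC was 0.38 beside 0.01 over all tested genes. Slc16a1, the monocarboxylate transporter MCT1, went from 28.4 ± 1.79 to 57.0 ± 12.9 RPKM (LFC 1.002, edgeR FDR 1.47e-10). Slc5a8, a sodium-coupled butyrate transporter, went from 35.9 to 63.4 RPKM (LFC 0.82, edgeR FDR 2.96e-06), and Bsg, the chaperone of MCT1, from 284 to 392 RPKM (LFC 0.47, edgeR FDR 1.41e-05). Slc16a6, a carrier of the same family that exports ketone bodies from liver, fell from 4.21 to 2.95 RPKM (LFC -0.51, edgeR FDR 0.00548), and this call was lost with the quasi-likelihood test and on leaving out germ-free mouse 1, 2 or 5 or humanized mouse 1, 4 or 6, with FDRs up to 0.0302. The ketone body receptor Hcar2 had an LFC of 0.29 and an FDR of 0.570. Neither Slc16a7, another carrier of that family (LFC -0.55, edgeR FDR 0.0167), nor the receptor Ffar3 (LFC 1.11, edgeR FDR 0.0291, 6 to 28 reads per mouse) was called.

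Of 10 tested genes in a list of butyrate activation and mitochondrial fatty acid oxidation, 7 were higher and none lower at that FDR, with a median LFC of 0.52. The largest rises were in the subunits of the trifunctional protein, which acts on long-chain rather than short-chain acyl-CoA, Hadhb from 18.8 to 39.8 RPKM (LFC 1.09, edgeR FDR 3.47e-30) and Hadha from 33.1 to 67.0 RPKM (LFC 1.02, edgeR FDR 1.66e-22). The electron carriers Etfa, Etfdh and Etfb had LFCs of 0.61, 0.59 and 0.56, and serve acyl-CoA of any length. Acads and Hadh, which act on short chains, had LFCs of 0.49 and 0.38. These 5 genes were called higher, and Echs1, the short-chain hydratase, had an LFC of 0.23 and an edgeR FDR of 0.0334. Acsm3, a butyrate-activating ligase, had an LFC of -0.31 with an edgeR FDR of 0.0117, although all 6 humanized mice lay below all 5 germ-free mice. Acsm1 and Acsm2 had no read in any mouse and Acsm5 was too low to be tested.

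Genes of the enzymes that supply or share substrates with the members were examined too. Oxct1 uses succinyl-CoA, and of 5 genes in a list of succinyl-CoA supply or use 4 were higher and none lower. Dlst, Suclg1, Sucla2 and Suclg2 had LFCs of 0.43, 0.42, 0.34 and 0.29, while Ogdh had an LFC of 0.25 and an edgeR FDR of 0.0104. Suclg1, Sucla2 and Suclg2 encode subunits of the ligase that can use succinyl-CoA as well as form it. Acat1 also closes isoleucine breakdown, and of 19 genes of branched-chain amino acid breakdown 7 were higher and none lower, with a median LFC of 0.09. These were Dld (0.51), Pcca (0.44), Hibch (0.39), Hibadh (0.37), Mccc1 (0.36), Acad8 (0.28) and Mcee (0.27), the values being LFCs. The calls of Suclg2 and Mcee were lost on leaving out any of 10 mice, one at a time, with FDRs up to 0.0234 and 0.0458. Those of Mccc1 (FDR up to 0.0201), Acad8 (up to 0.0171) and Hibch (up to 0.0136) were lost on leaving out germ-free mouse 1 or 4, and for Mccc1 and Acad8 also germ-free mouse 3 or 5, and for Mccc1 also humanized mouse 1 or 4. Among the regulators of ketogenesis none of 5 tested genes was called by the exact test, by the quasi-likelihood test or by DESeq2, and 1 had an unadjusted p below 0.05, with an LFC of -0.03 for Ppara, the nuclear receptor that drives hepatic ketogenesis, and an LFC of 0.28 and an edgeR FDR of 0.0376 for Sirt3, a mitochondrial deacetylase.

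Of 13 reference genes of mitochondria, 9 were called higher (Atp5a1, Atp5b, Cox4i1, Cs, Hspd1, Ndufs1, Sdha, Uqcrc2 and Vdac1), with a median LFC of 0.39. Bdh1, at 0.47, was within the range of this list, 0.10 to 0.53, and Hadhb, Hadha, Slc16a1, Slc5a8, Etfa, Etfdh and Etfb, all called higher, lay above it. The calls of Sdha and Atp5a1 were lost on leaving out any of 10 and any of 9 mice, with FDRs up to 0.0372 and 0.0350. The part of mitochondrial content in these results was not tested.

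The calls depended in part on the scaling of the libraries. With TMM, RLE or upper-quartile factors, with the quasi-likelihood test, with DESeq2 and with no filter, Bdh1 was higher, Bdh2 lower and the other 2 not called. Scaled by the epithelium markers, Bdh1 was no longer called and Oxct1 was called lower with an LFC of -0.34 and an FDR of 0.000848. Scaled by the mitochondrial reference genes, Bdh1 was again not called and Oxct1 had an LFC of -0.48 and an FDR of 1.26e-07. Bdh2, whose direction was favoured by how it entered the test, had LFCs of -2.01 and -2.13. Acat1 turned to -0.02, -0.07 and -0.21 with total counts, epithelium markers and mitochondrial genes and was not called. All FDRs here are from edgeR's exact test. These 3 scalings moved the median LFC of all genes to -0.18, -0.23 and -0.36, and relative to that median Bdh1 was at 0.46 under each, Acat1 at 0.15 to 0.16 and Oxct1 at -0.12 to -0.11, against 0.47, 0.16 and -0.10 with TMM. A change of scaling shifts all genes by nearly the same amount, so these relative values had to stay nearly the same. They do not tell which scaling is right, and the cause of the changed calls was not tested.

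**Figure D4:**
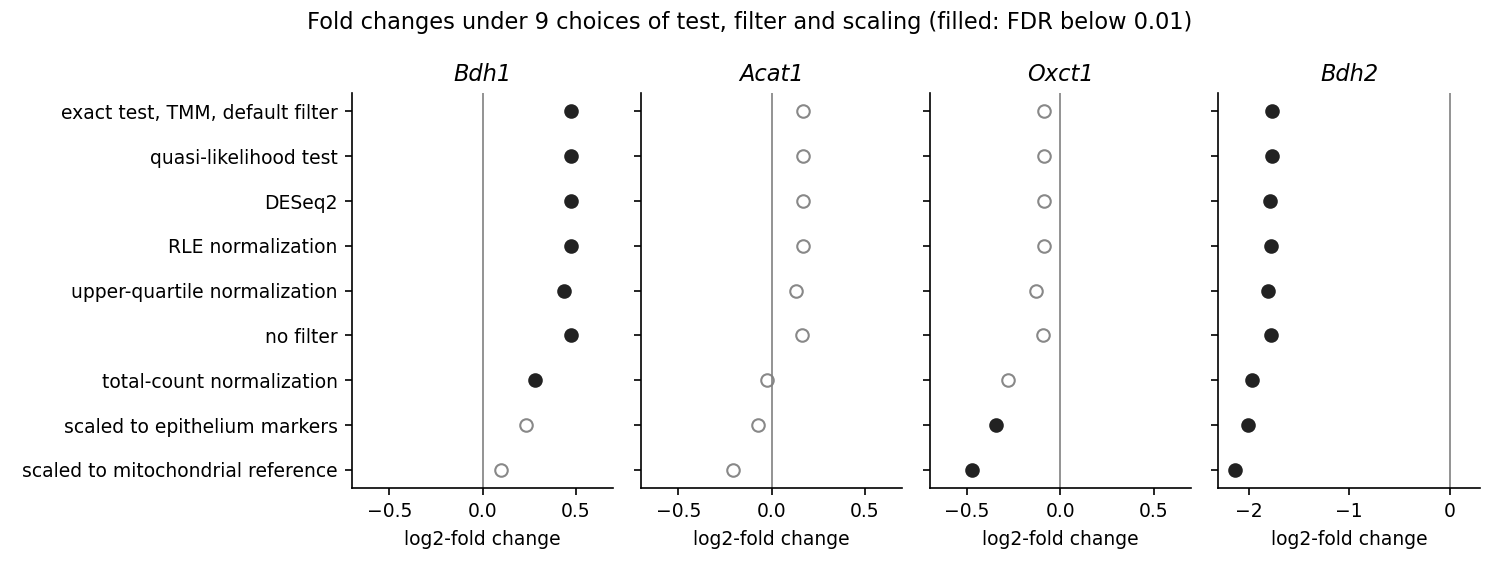
LFC of each gene (horizontal axes, log2 scale, a range of its own for Bdh2) under 9 choices of test, filter and scaling (vertical axis), filled where the FDR was below 0.01. Bdh2 is filled in all 9, Bdh1 is open under the lowest 2 scalings, Oxct1 is filled under these, and Acat1 is open throughout and turns sign under the lowest 3. The replicate block, under which neither Bdh1 nor Bdh2 was called, is not shown. Nor is the filter of at least 10 reads in every mouse, under which Bdh2 was not tested.

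In a whole piece of colon, fewer cells of a type and less RNA per cell cannot be told apart, and the markers of other cell types moved between the groups. Of 11 epithelium markers 3 were higher and none lower, with summed levels of 9276 to 12033 CPM in germ-free and 10334 to 14354 in humanized mice. The 8 markers of differentiated colonocytes summed to 6611 to 9816 and 11832 to 20413 CPM, with 1 of them, Car1, called higher. Car1 alone went from 3044 to 7698 RPKM. The median LFC of the 8 colonocyte markers was 0.27, with a range of -0.28 to 1.34 and 5 at an unadjusted p below 0.05. That of the 11 epithelium markers was 0.23, with a range of 0.05 to 0.48 and 6 at an unadjusted p below 0.05. All 10 smooth muscle markers were lower (834 to 2381 against 95.9 to 856 in sum), as were 7 of 8 fibroblast markers and all 8 markers of enteric neurons and glia, while 4 of 9 immune markers were higher. None of the 6 endothelium markers was called by edgeR's exact test, with 5 at an unadjusted p below 0.05 and a median LFC of -1.01. No marker was at 0 in all mice. The 9 immune markers had LFCs from -0.67 to 3.21. Called epithelium markers (Krt18, Elf3 and Lgals4), Car1 and the 4 called immune markers moved in the direction of Bdh1. Called muscle, fibroblast and neural markers moved in that of Bdh2. The part of all these markers in the results was not tested.

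The genes with the most similar course over the 11 mice, by the root mean square difference of mean-centred log2 levels among genes of at least 10 CPM, are given as a description. For Bdh1 they were Tpi1, Fh1 and Pebp1 at differences of 0.057, 0.067 and 0.070, where Bdh1 itself had an SD of 0.29 on that scale. For Acat1 they were Gtf2h1, Opa3 and Rad9a (0.036, 0.041 and 0.042 against an SD of 0.13), and for Oxct1 Abat, Sertad1 and Btnl1 (0.058, 0.062 and 0.065 against an SD of 0.19). For Bdh2, with its few reads, they were Gcg, Gpr133 and Fbn1 at 0.52, 0.54 and 0.56 against an SD of 0.96. All points share library and depth.

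The libraries held 49097005 to 64148538 counted reads in germ-free and 39125290 to 54219854 in humanized mice, so that the germ-free libraries were deeper at the median, 56718640 against 43784996. At these depths Oxct1, Acat1 and Bdh1 rested on 5801 to 20056 reads in each mouse and Bdh2 on 4 to 48.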

How the data were processed

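Colon RNA of 11 mice was sequenced with 101 bp paired-end reads from TruSeq v2 libraries. The authors deposited raw read counts per gene, which were not normalized. Their processing notes name bcl2fastq 2.17.1.14, TopHat2 2.1.0, Bowtie2 2.2.3, featureCounts and Subread 1.4.6-p5 with mm10. The annotation release, the strand setting and the treatment of overlapping genes are not given in the sources used here. The members and lists were chosen with earlier results of these data known.

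Low counts were removed by filterByExpr with default settings (count 10, total 15, large n 10, proportion 0.7), leaving 19863 of 43346 genes. These were normalized by TMM and tested with the exact test of edgeR 4.0.16 in R 4.3.3, with Benjamini-Hochberg adjustment over all tested genes and an FDR threshold of 0.01. Standard errors and 95% intervals came from edgeR's quasi-likelihood fit (limma 3.58.1). RPKM used the deposited gene lengths, with prior counts of 2 for log2 CPM and 0.25 for log2 RPKM. Overlap of groups was judged on CPM. Single values were compared by exact two-sided permutation over the mice. Named genes were the members, every called gene of the pathway lists, the other ketone body enzymes reported and the 3 genes most alike to each member. Other genes named (Acsm1, Acsm2, Acsm3, Acsm5, Echs1, Ogdh, Oxct2b, Hcar2, Slc16a7, Ffar3, Ppara, Sirt3, called cell type markers and genes overlapping a member) were chosen after their values were seen. Of 137 list names all matched, 2 through older symbols (Igj for Jchain and Emr1 for Adgre1). Of entries with the same name the widest was used. Exons came from GENCODE M21 on GRCm38, whose starts and ends equal the table's. Alternatives were DESeq2 1.42.0, other normalizations, filters and thresholds, each mouse left out, and a replicate block; the second Bdh2 entry was added after seeing the data. The pipeline was tested on simulated data. No pair of libraries of the same group agreed within sampling noise. Some genes of the lists are not reported here. The labels name no batch, and no sample was left out.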

Additional observations from a re-analysis of the deposited data

How the results depend on the processing

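The directions and calls of Bdh1, Bdh2, Acat1 and Oxct1 held without any single mouse, with LFCs of 0.43 to 0.52, -1.99 to -1.61, 0.12 to 0.20 and -0.16 to -0.02, the direction of Bdh2 being limited by how it entered the test, and the 3 differences among Bdh1, Acat1 and Oxct1 kept their side of 0.05 under another prior count, on raw counts and without any mouse. With scaling to epithelium markers, Bdh1 (LFC 0.23) was no longer called and Oxct1 (-0.34) was called lower. That made 0 higher and 2 lower of the 4 genes, against 1 and 1 as reported. Of all genes 521 were higher and 2807 lower, against 1827 and 1999 as reported. The pathway lists had 8 higher and 3 lower, against 30 and 1 as reported. With scaling to mitochondrial genes the values were 0.10 for Bdh1, -0.48 for Oxct1, 0 and 2 of the 4 genes, 430 and 7015 of all genes, and 5 and 17 over the lists. With total counts, 773 and 3609 of all genes and 15 and 3 of the lists were called higher and lower. The share called higher of all calls thus moved with the scaling, whose median shifts are given above. With the quasi-likelihood test 1298 of all genes and 0 of the lists were lower, with an FDR threshold of 0.05 2780 of all genes were higher (2905 lower) and 3 of the lists lower, and the lists had 3 lower with DESeq2, 2 with upper-quartile factors, 2 with at least 10 reads in every mouse and 0 to 3 without 1 mouse. With at least 10 reads in every mouse Bdh2 was not tested, leaving 0 lower genes of the 4. The cause of these changes was not tested.

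Replicate numbers were entered as a replicate block in the quasi-likelihood fit. Same-numbered mice did not deviate together (5 pairs, correlations of -0.13 to 0.09, none over 0.1, 1 of 5 most like its own number), so the numbers do not pair the mice. Under the block Bdh1 had an LFC of 0.44 (FDR 0.0160) and Bdh2 of -1.78 (FDR 0.0319), with 0 higher and 0 lower of the 4 genes, 506 higher and 506 lower of all genes, and 12 higher and 0 lower over the lists.

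Over 36 other genes named, 791 alternative values gave 624 with the same direction and call, 143 in which the call was lost, 2 in which one was gained and 22 that turned sign, none of these 22 being called under the alternative. Of genes called as reported, 9 turned sign, all with scaling to mitochondrial genes, where the LFC was -0.011 for Hadh, -0.096 for Acad8, -0.021 for Mccc1, -0.0067 for Hibadh, -0.10 for Mcee, -0.090 for Suclg2, -0.040 for Sucla2, -0.049 for Atp5a1 and -0.072 for Sdha. The other 13 were of Aacs, Acat3 and Oxct2a, not called as reported, with LFCs of -0.12 and -0.12 for Aacs and Oxct2a with total counts, -0.16, -0.036 and -0.19 for Aacs, Acat3 and Oxct2a with epithelium markers, -0.30, -0.17 and -0.33 with mitochondrial genes and -0.11 for Oxct2a under the replicate block, and with ranges without 1 mouse of -0.0061 to 0.11 for Aacs, which turned without humanized mouse 1, and -0.26 to 0.25 for Oxct2a, which turned without germ-free mouse 4 or humanized mouse 1 or 4. Acat1, also not called, turned to -0.023, -0.072 and -0.21 with total counts, epithelium markers and mitochondrial genes. The mitochondrial reference genes, Atp5a1 and Sdha among them, set the scaling to mitochondrial genes. Their lost calls and turned signs under that scaling are therefore not independent of it. Depth limits Bdh2, with 4 to 12 reads per humanized mouse.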
